A study of Mus musculus with 7 samples.

Results

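The 7 genes followed here act in or on adrenergic heat production in brown fat, and were measured across 7 libraries of brown adipose tissue: the receptors Adrb1 and Adrb3, the coactivator Ppargc1a, the deiodinase Dio2, the uncoupling protein Ucp1, and the channels Otop1 and Kcnk3. They were taken by symbol from a table of 55487 genes, and all 7 of 7 passed the filter on low counts, among 16823 genes tested. The donors of the tissue were NOD/ShiLtJ mice, prone to autoimmune diabetes, whose blood glucose had reached 190 to 230 mg/dL. In the CB-100 group (4 mice), the part above 100 kDa of buffer conditioned by brown adipocytes was given under the skin for 7 days at 1.5 mg per kg of body weight. The sham group (3 mice) received KRBH buffer. The labels repeat the CB-100 protocol on the sham samples and give no schedule of their own for them. Tissue was collected 2 to 8 weeks later; the labels give neither the week nor an age or housing temperature for single mice. Sample titles carry nd in the CB-100 group and d in the sham group, codes that the labels do not spell out, and what they mark cannot be told apart from the injection.

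Brown adipocytes burn fuel for heat when noradrenaline from sympathetic nerves reaches their beta-adrenergic receptors. The receptors raise cyclic AMP and activate protein kinase A, which releases fatty acids that open UCP1 in the inner mitochondrial membrane. The same signal induces transcription of Ucp1, of the coactivator gene Ppargc1a and of Dio2, whose enzyme makes active thyroid hormone inside the cell.

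Libraries totalled between 10815101 and 28528471 counts, with CB-100 replicate 4 the deepest. Xist and Y-linked counts showed 1 male in each group, replicate 3 of both. CB-100 replicate 4 also held the highest share of counts from the mitochondrial genome, 36.3% against 14.3% to 25.3% in the other 6 libraries. Library composition also differed between the groups without overlap: 7SL and 7SK RNA took 9.54% to 14.4% of counts in CB-100 and 5.89% to 8.35% in sham, and protein-coding genes 76.2% to 80.0% against 83.0% to 86.5%. The part of these shares in the results was not tested. Cidea, a lipid droplet protein of brown adipocytes chosen here as a check on the tissue, was present at 317 to 643 CPM (counts relative to the TMM-scaled library total) in all 7 libraries. Skeletal muscle, which adjoins the fat pad, was represented by 10 marker genes summing to 313 to 2345 CPM in CB-100 and 863 to 1917 CPM in sham, and none of the 10 passed the test. Macrophage markers summed to 61.9 to 150 CPM in CB-100 and 65.0 to 106 CPM in sham, and T cell and B cell markers to less than 7 CPM in each library. White adipocyte markers summed to 53.7 to 88.4 CPM in CB-100 and 13.6 to 54.1 CPM in sham, but did not move together. Of 4 tested, 3 had estimates above 0 and 1 below, Agt (log2 change -2.33, SE 0.60, adjusted p = 0.065 in edgeR). No gene of these lists was called, and their part in the results was not tested.

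Of the 7 genes, 6 had estimates above 0 in CB-100 and Kcnk3 lay just below 0, but 0 of 7 passed edgeR's quasi-likelihood test at an adjusted p of 0.05. Over all genes 3.70% passed, 1.42% higher and 2.28% lower in CB-100. At an unadjusted p under 0.05 there were 3 of 7 (Adrb1, Dio2 and Adrb3), against 23.9% of all genes, and DESeq2 and limma voom each gave 4 at that level and 1 after adjustment, Adrb1. The median log2 change of the 7 was 1.15, against 0.03 over all genes tested. In 2 of them, Adrb1 and Dio2, the groups did not overlap and CB-100 was the higher one. Of all genes 23.3% had groups apart in either direction and 11.1% in that one. Replicates differed widely from each other. The highest library exceeded the lowest by 365-fold for Dio2 and 48.5-fold for Ucp1, but by 1.33-fold for Kcnk3.

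**Figure D1:**
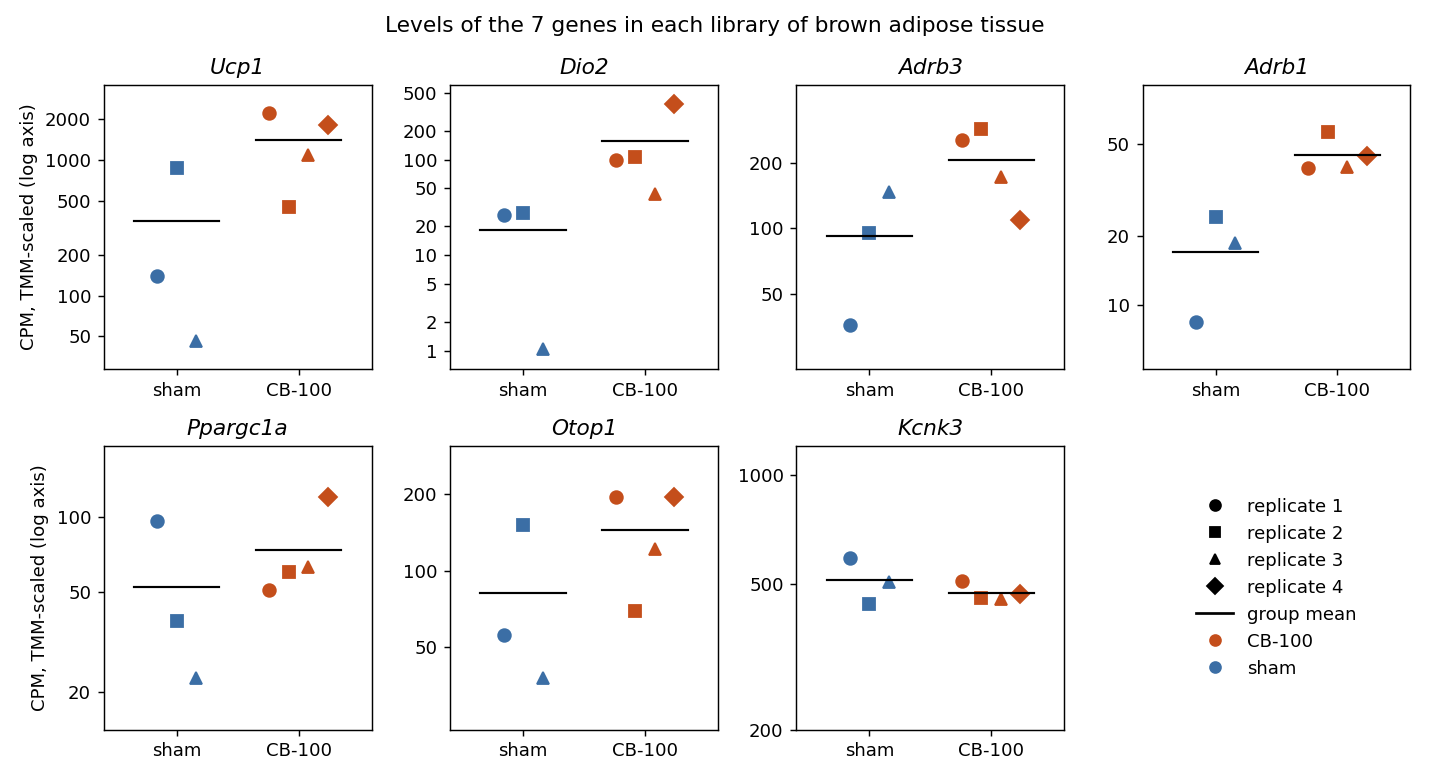
CPM of the 7 genes (log axes, each with its own range) in 3 sham and 4 CB-100 libraries, with marker shape for the replicate and a line for the group mean. Adrb1 and Dio2 show no overlap between the groups, Ucp1 ranges from 46.1 to 875 CPM within sham alone, and Kcnk3 stays between 442 and 589 CPM.

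Adrb1 encodes the beta-1 receptor, which in brown fat is linked to precursor cells as well as to mature adipocytes. It stood at 39.4, 56.6, 39.8 and 44.5 CPM in CB-100 replicates 1 to 4 and at 8.43, 24.1 and 18.5 CPM in sham replicates 1 to 3. The lowest CB-100 library was thus above the highest sham library, and the 4 CB-100 values were the tightest of any of the 7 genes but Kcnk3. Group means were 45.1 ± 8.06 CPM (SD, n = 4) and 17.0 ± 7.95 CPM (SD, n = 3), a log2 change of 1.41 (SE 0.32, 95% interval 0.67 to 2.15). With an edgeR adjusted p of 0.051 it missed the threshold. Over the 18 alternatives, each with its own test (edgeR, DESeq2 or limma voom), the adjusted p ran from 0.0010 to 0.23. Adrb1 passed in 7 of them. On the GRCm38 assembly with GENCODE M21 models, Adrb1 spans chr19:56722199-56733113 (plus strand) and Adrb3 chr8:27225776-27250616 (minus strand). In tissue measured in bulk, fewer cells of a type and less RNA per cell cannot be told apart.

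Adrb3 encodes the beta-3 receptor, the main adrenergic receptor of mature mouse brown adipocytes. Its levels were 254, 285, 172 and 109 CPM in CB-100 replicates 1 to 4, and 36.0, 95.2 and 146 CPM in sham replicates 1 to 3. Here the groups overlapped, since sham replicate 3 lay above CB-100 replicate 4. The log2 change was 1.15 (SE 0.49, 95% interval 0.03 to 2.26, adjusted p = 0.20 in edgeR). Without sham replicate 1, the lowest library, it was 0.76, and without sham replicate 3 it was 1.64. Adrb3 counts are uncertain: they are non-whole in all 7 libraries, and the gene shares 839 exon bases with Gm45470 on the opposite strand. Whether the overlap gives the non-whole counts was not tested. That antisense gene carried 10.0% to 65.3% as many counts as Adrb3, the most in sham replicate 1, and had a log2 change of -0.12 (SE 0.22).

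Other adrenergic receptors are listed for comparison. The alpha-1A receptor gene Adra1a averaged 191 ± 26.5 CPM with CB-100 against 157 ± 33.2 CPM with sham, a log2 change of 0.28 (SE 0.20, 95% interval -0.16 to 0.72). Adra1d, Adra2a and Adra2b, which encode further alpha receptors, had log2 changes of -0.36, 1.31 and 0.39. Of these 4 receptor genes 0 passed edgeR's test. At an unadjusted p under 0.05 there was 1, Adra2a, against 23.9% of all genes.

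Expressed per kb of exon (RPKM), which allows levels of different genes to be compared, Adrb3 was more abundant than Adrb1 in each of the 7 libraries. Adrb3 stood at 75.2, 84.3, 50.9 and 32.3 RPKM in CB-100 replicates 1 to 4 and at 10.7, 28.2 and 43.2 RPKM in sham replicates 1 to 3. Adrb1 stood at 11.6, 16.7, 11.8 and 13.1 RPKM in the same CB-100 libraries and at 2.49, 7.13 and 5.48 RPKM in the sham libraries. Both receptors were at their lowest in sham replicate 1. Any reads of Gm45470 counted to Adrb3 would add to its level.

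**Figure D2:**
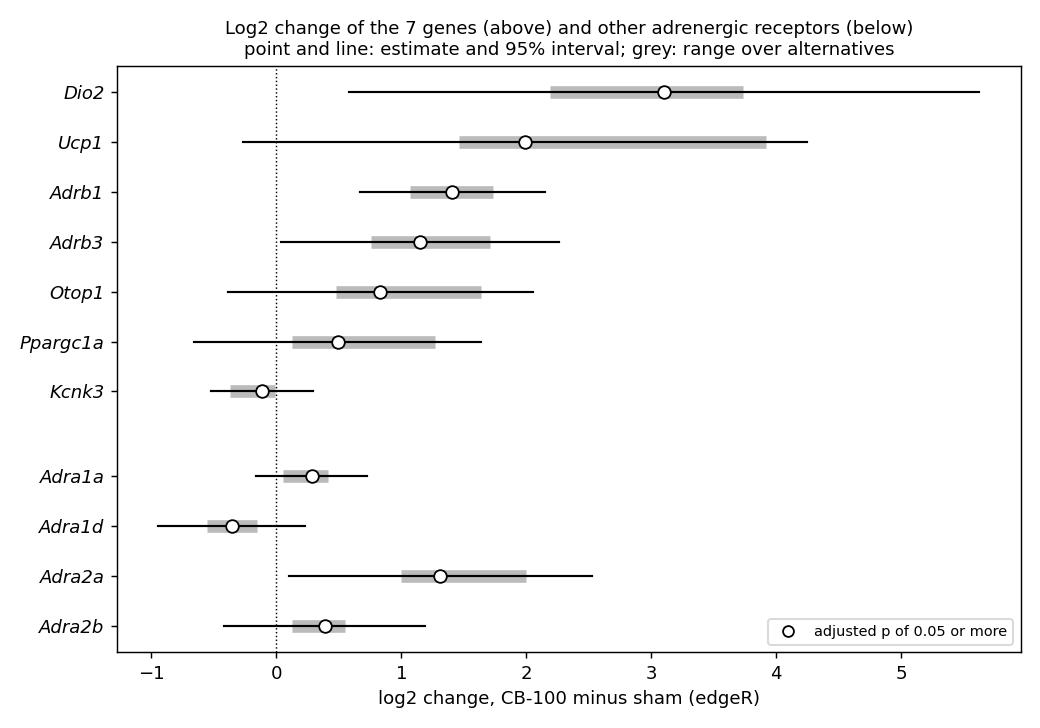
Log2 change of CB-100 minus sham for the 7 genes and 4 other adrenergic receptors, with 95% intervals from edgeR. Grey bars show the range over 18 alternatives (14 for Adra2a). No point passed the threshold, and Adrb1 at 1.41 has the interval farthest above 0 among the 7 genes.

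Between receptor and target genes lies the cyclic AMP pathway, for which 33 genes were listed. Of 32 tested, none passed in edgeR's test, and the median log2 change was 0.09. An unadjusted p under 0.05 was found for 4 of the 32, against 23.9% of all genes. The smallest p-values belonged to Adcy7, an adenylyl cyclase (14.9 ± 5.30 CPM with CB-100, 7.77 ± 1.54 CPM with sham, log2 change 0.94, adjusted p = 0.089 in edgeR), and to Rgs2, a regulator of G protein signalling (98.7 ± 60.9 CPM against 265 ± 68.0 CPM, log2 change -1.42, adjusted p = 0.10 in edgeR). The sympathetic nerve list gave little to measure. Th and Dbh, the noradrenaline synthesis genes, were at 0 counts in all 7 libraries, where 3 counts would have been 0.140 to 0.274 CPM. Markers of Schwann cells, which ensheathe nerve fibres, summed to 72.8 to 89.2 CPM in CB-100 and 50.1 to 58.9 CPM in sham. In edgeR 0 of these 5 markers were called and 3 had an unadjusted p under 0.05, against 23.9% of all genes. Their part in the receptor values was not tested.

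Ppargc1a encodes PGC-1alpha, the coactivator that adrenergic signalling induces and that drives Ucp1 and mitochondrial genes. Levels were 50.9, 60.2, 62.9 and 120 CPM in CB-100 replicates 1 to 4 and 95.9, 38.3 and 22.6 CPM in sham replicates 1 to 3. Sham replicate 1 lay above 3 of the 4 CB-100 libraries. The log2 change was 0.49 (SE 0.50, 95% interval -0.66 to 1.64, adjusted p = 0.58 in edgeR), and it moved from 0.12 without sham replicate 3 to 1.27 without sham replicate 1. Its relative Ppargc1b, named after its values were seen, varied less between libraries, averaging 232 ± 11.8 CPM with CB-100 and 216 ± 45.4 CPM with sham, a log2 change of 0.10 (SE 0.18, 95% interval -0.31 to 0.51). Per kb of exon Ppargc1b was the more abundant of the pair in each of the 7 libraries, at 58.2 ± 2.96 RPKM against 11.1 ± 4.76 RPKM for Ppargc1a in CB-100 and 54.2 ± 11.4 RPKM against 7.93 ± 5.86 RPKM in sham.

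Dio2 encodes the type 2 deiodinase, which turns thyroxine into active thyroid hormone in the brown adipocyte. It was counted at 98.7, 107, 43.6 and 377 CPM in CB-100 replicates 1 to 4, and at 26.1, 27.8 and 1.03 CPM in sham replicates 1 to 3. Sham replicate 3 held only 22 reads of the gene and CB-100 replicate 4 held 8109. Dio2 shares 100 exon bases with Gm26512 on the opposite strand, which carried 45.5% as many counts as Dio2 in sham replicate 3 and 0.0863% to 6.42% in the other 6 libraries, so the lowest value is uncertain. No sham library reached the lowest CB-100 library. Means of 157 ± 150 CPM (SD, n = 4) and 18.3 ± 15.0 CPM (SD, n = 3) gave the largest log2 change of the 7, 3.10, but with an SE of 1.10 and a 95% interval of 0.58 to 5.63 (adjusted p = 0.14 in edgeR). Without CB-100 replicate 4 the estimate was 2.19 (adjusted p = 0.25 in edgeR). That library also stood highest in summed endothelial markers (1471 CPM against 557 to 882 CPM in the other 6), in smooth muscle and pericyte markers (1717 CPM against 429 to 698 CPM) and in red cell markers (4544 CPM against 787 to 2201 CPM). None of the genes of those 3 lists passed, and their part in the Dio2 value was not tested. Of the other deiodinase genes, Dio1 was at 0 counts in all 7 libraries and Dio3 did not pass the filter. In the thyroid hormone list 0 of 7 tested genes passed in edgeR's test, with a median log2 change of 0.01. Of the 7, 1 had an unadjusted p under 0.05, against 23.9% of all genes. Klf9, a thyroid hormone target also raised by glucocorticoids, gave -0.60 (SE 0.23) and the transporter gene Slc16a10 gave 0.45 (SE 0.20).

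Ucp1 encodes the proton carrier that makes brown fat mitochondria produce heat. Its levels were 2237, 449.8, 1098 and 1824 CPM in CB-100 replicates 1 to 4 and 139.7, 875 and 46.1 CPM in sham replicates 1 to 3. Sham replicate 2 lay above CB-100 replicate 2, so the groups overlapped. The coefficient of variation was 56.4% in CB-100 and 128% in sham. Means of 1402 ± 791 CPM (SD, n = 4) and 354 ± 454 CPM (SD, n = 3) gave a log2 change of 1.99 (SE 0.98, adjusted p = 0.26 in edgeR), whose 95% interval of -0.27 to 4.25 includes 0. Without sham replicate 2, the highest of its group, the estimate was 3.92 (adjusted p = 0.058 in edgeR), and without sham replicate 3 it was 1.46. The single male of each group had 1098 CPM with CB-100 and 46.1 CPM with sham. In the 5 females the log2 change was 1.56 (adjusted p = 0.47 in edgeR).

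To set Ucp1 against the adipocyte RNA of the same library, it was divided by the geometric mean of 5 adipocyte genes, Adipoq, Plin1, Cidec, Fabp4 and Lipe. The ratio was 2.82, 0.608, 1.40 and 2.57 in CB-100 replicates 1 to 4 and 0.188, 0.757 and 0.0363 in sham replicates 1 to 3. The libraries stood in the same order as by CPM, with sham replicate 2 again above CB-100 replicate 2. On the log2 scale the group means were 0.66 ± 1.02 (SD, n = 4) and -2.53 ± 2.19 (SD, n = 3), and their difference was 3.19 (exact two-sided permutation p = 0.0857, where 35 splits allow no p below 0.0286). A difference of mean log2 values is another measure than edgeR's log2 change, 1.99 for Ucp1. The gap between 3.19 and 1.99 therefore does not give the part of the denominator. That denominator was not level between the groups. Summed adipocyte markers were 4098 to 5772 CPM in CB-100 and 5058 to 8043 CPM in sham, with 0 of 5 called and 4 of 5 estimates below 0. With Adipoq alone as the denominator the difference was 3.62 (exact permutation p = 0.0286), and with Plin1 alone it was 2.44 (exact permutation p = 0.11). Adipoq was itself lower in CB-100 without overlap, at 366 ± 7.28 CPM against 690 ± 179 CPM (log2 change -0.91, adjusted p = 0.051 in edgeR). A ratio to Adipoq therefore holds both changes and cannot tell them apart.

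Cyclic AMP reaches these genes through CREB-family factors, which bind the cyclic AMP response element, TGACGTCA, or its core TGACG. The 250 bases before the RefSeq start of Ucp1, Dio2 and Ppargc1a are shown because these are the members known as cyclic AMP targets, with the core in capitals on either strand (TGACG or CGTCA, GRCm38.p6). In GENCODE M21 the genes span chr8:83290352-83298452 (Ucp1), chr12:90724552-90738438 (Dio2) and chr5:51454250-51567726 (Ppargc1a). The windows are chr8:83290098-83290347 on the plus strand for Ucp1, chr12:90739039-90739288 on the minus strand for Dio2 and chr5:51567726-51567975 on the minus strand for Ppargc1a.
Ucp1: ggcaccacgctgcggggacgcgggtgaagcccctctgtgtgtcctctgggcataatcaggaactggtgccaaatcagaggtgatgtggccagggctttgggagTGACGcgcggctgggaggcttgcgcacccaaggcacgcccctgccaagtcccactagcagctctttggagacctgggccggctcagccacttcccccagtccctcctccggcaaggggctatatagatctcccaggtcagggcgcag
Dio2: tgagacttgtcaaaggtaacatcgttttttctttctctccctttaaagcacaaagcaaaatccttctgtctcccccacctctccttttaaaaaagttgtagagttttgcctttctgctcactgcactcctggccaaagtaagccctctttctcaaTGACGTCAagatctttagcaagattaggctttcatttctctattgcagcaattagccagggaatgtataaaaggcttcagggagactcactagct
Ppargc1a: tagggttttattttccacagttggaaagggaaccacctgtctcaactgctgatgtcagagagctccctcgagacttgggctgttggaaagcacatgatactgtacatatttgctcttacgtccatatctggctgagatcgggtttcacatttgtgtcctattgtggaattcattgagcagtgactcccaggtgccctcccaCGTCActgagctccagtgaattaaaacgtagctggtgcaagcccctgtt

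Dio2, the gene with the largest estimate, was the only one of the 5 members in the promoter table with the full 8-base element, 95 bases before its start. The full element occurred in 1.55% of 32851 mouse promoter windows of that length, and at least 1 core in 17.8%. Ucp1 had 1 core at 147 bases, Ppargc1a 1 at 49 bases and Adrb1 1 at 90 bases before the start, while Otop1 had none in its window. RefSeq and GENCODE starts differ for some of these genes: the Otop1 window, chr5:38277154-38277403 on the plus strand, lies inside the GENCODE span of the gene, and the Dio2 window lies apart from its GENCODE span. The Dio2 element holds the core on both strands, at 95 and 92 bases. A match in these letters is a description of the reference sequence and was not measured as binding. Adrb3 and Kcnk3 had no entry in the table.

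Otop1 encodes otopetrin 1, a proton channel, whose RNA is prominent in brown fat; the gene spans chr5:38275972-38304217, plus strand. It stood at 194.5, 69.6, 122 and 194.4 CPM in CB-100 replicates 1 to 4 and at 55.7, 152 and 37.8 CPM in sham replicates 1 to 3. The 7 libraries fell in the same order for Otop1 as for Ucp1 except that sham replicate 2 and CB-100 replicate 3 changed places. Over the 7 libraries log2 CPM of the 2 genes gave Pearson r = 0.97, a description over libraries that share their scaling. The range of Otop1 was narrower, 5.15-fold against 48.5-fold for Ucp1. Its log2 change was 0.83 (SE 0.53, 95% interval -0.39 to 2.05, adjusted p = 0.37 in edgeR), and without sham replicate 2 it was 1.63 (adjusted p = 0.099 in edgeR). The paralogs Otop2 and Otop3 did not pass the filter.

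**Figure D3:**
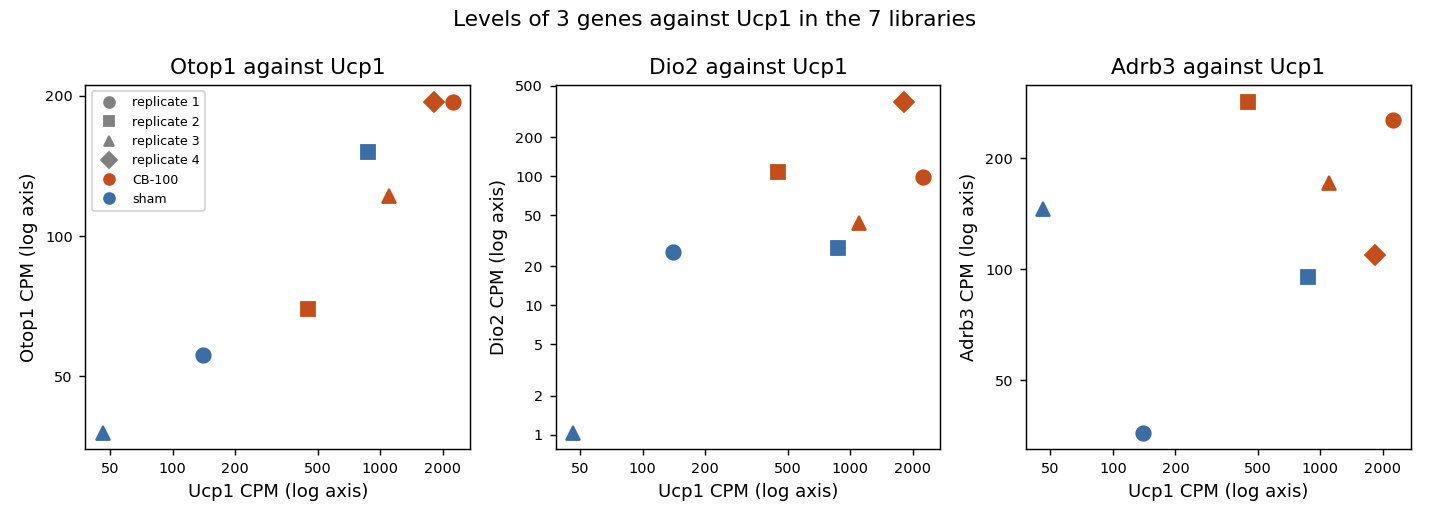
Levels of Otop1, Dio2 and Adrb3 against Ucp1 in the 7 libraries, in CPM on log axes, with colour for the group and shape for the replicate. Otop1 follows Ucp1 across both groups, Dio2 of sham replicate 3 lies at 1.03 CPM, and Adrb3 is highest in CB-100 replicate 2, which ranks the fifth for Ucp1.

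The members did not vary as a unit. Pearson r of log2 CPM with Ucp1 over the 7 libraries was 0.84 for Dio2, 0.67 for Adrb1, 0.46 for Ppargc1a, 0.35 for Adrb3 and -0.50 for Kcnk3. These values take in the difference between the groups and do not describe variation within a group. Sham replicate 3 was the lowest of all libraries for Ucp1, Dio2, Ppargc1a and Otop1, but ranked the fourth for Adrb3. Sham replicate 1 was the lowest for both receptors, yet the second highest for Ppargc1a. The 5 protein-coding genes closest to Ucp1 among 12745 compared, by Pearson r over the same 7 libraries, were Sorl1 (0.99), Mlst8 (0.98), Angptl8 (0.98), Capn2 (0.97) and Plppr4 (0.97). Sorl1 encodes a sorting receptor, Mlst8 a subunit of the mTOR complexes, and Angptl8 a secreted protein of lipid handling. They were picked for likeness to Ucp1 over these same libraries, so their direction between the groups follows from that choice. Their tests therefore add no separate support. None of the 5 passed edgeR's test. Angptl8 had the largest log2 change of the 5, 1.36 (SE 0.44, adjusted p = 0.11 in edgeR). It averaged 11.7 ± 2.99 CPM with CB-100 against 4.601 ± 3.26 CPM with sham. Angptl8 passed in 3 of 18 alternatives (adjusted p of 0.022 to 0.32 over all 18, by edgeR, DESeq2 or limma voom).

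Kcnk3 (chr5:30588170-30625271, plus strand) encodes TASK-1, a potassium leak channel enriched in brown adipocytes, where it is known to counteract adrenergic heat production. Levels were 510, 459, 456 and 469.8 CPM in CB-100 replicates 1 to 4 and 589, 442 and 508 CPM in sham replicates 1 to 3. Values of the groups interleaved, with a coefficient of variation of 5.31% in CB-100 and 14.4% in sham. The log2 change was -0.12 (SE 0.18, adjusted p = 0.73 in edgeR), and its 95% interval of -0.52 to 0.29 leaves a change of 1 on the log2 scale outside in either direction. Like Adrb3, Kcnk3 had non-whole counts in all 7 libraries. It shares 229 exon bases with Gm9899 on the opposite strand, whose counts were 10.99% to 16.2% of those of Kcnk3, so its level is uncertain. Among its listed relatives of the K2P potassium channel family, Kcnk2, Kcnk4, Kcnk5, Kcnk6 and Kcnk7 passed the filter, with log2 changes of -0.21, -0.16, 0.25, 0.60 and 0.79, and none passed the test.

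Per kb of exon, Ucp1 was the most abundant of the 7 in the group means, at 857 ± 483 RPKM in CB-100 and 216 ± 277 RPKM in sham. That was rank 38 and rank 118 among 16802 tested genes with a length. In sham its spread spanned the level of Kcnk3, the next gene, at 129 ± 18.5 RPKM, and in sham replicates 1 and 3 Kcnk3 was the higher of the 2. In CB-100 there followed Kcnk3 (119 ± 6.33 RPKM), Adrb3 (60.7 ± 23.6), Otop1 (42.1 ± 17.7), Dio2 (26.9 ± 25.8), Adrb1 (13.3 ± 2.38) and Ppargc1a (11.1 ± 4.76), where from Adrb3 downward each gene differed from the next by less than the larger of their SDs. Dio2 changed its place most, from rank 7714 of all genes in sham to rank 887 in CB-100. Neither of the tested uncoupling protein paralogs passed, and neither was tested against Ucp1. Ucp2 averaged 91.3 ± 34.0 CPM with CB-100 against 154 ± 21.2 CPM with sham, a log2 change of -0.75 (SE 0.26, adjusted p = 0.12 in edgeR), and its counts are uncertain because Dnajb13 overlaps it on the opposite strand. Ucp3 averaged 76.2 ± 22.6 CPM and 51.8 ± 48.8 CPM (log2 change 0.56, SE 0.56), and passed without sham replicate 2, its highest library (1.69, adjusted p = 0.043 in edgeR).

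Around the 7 genes, 2 further lists described the wider brown fat programme. Of 25 transcription regulators of thermogenesis none passed in edgeR's test and the median log2 change was -0.10. An unadjusted p under 0.05 was found for 5 of the 25, against 23.9% of all genes. Ncoa1, a nuclear receptor coactivator, gave -0.43 (SE 0.13, adjusted p = 0.0925 in edgeR), and Esrra, the orphan receptor that works with PGC-1alpha, gave 0.63 (SE 0.21, adjusted p = 0.11 in edgeR). Of 9 other brown adipocyte genes 1 fell, against 2.28% of all genes. An unadjusted p under 0.05 in edgeR was found for 2 of the 9, against 23.9% of all genes. The gene that fell was the fatty acid transporter Slc27a2, by 1.26 (SE 0.24, adjusted p = 0.034 in edgeR), from 382 ± 44.9 to 160 ± 46.7 CPM. In this list 8 of 9 estimates were below 0, with a median of -0.24. Slc27a2 shares 419 exon bases with Gm26697 on the opposite strand, and its call was lost without each single library other than CB-100 replicate 4, with an edgeR adjusted p of up to 0.13, and in females alone (0.20).

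Of 14 tested genes induced by cold or cyclic AMP in brown fat, 1 rose and 0 fell, against 1.42% and 2.28% of all genes. An unadjusted p under 0.05 in edgeR was found for 5, against 23.9% of all genes. There were 9 estimates above 0 and 5 below, with a median log2 change of 0.52. Gk, the glycerol kinase, rose by 2.59 on the log2 scale (SE 0.56, adjusted p = 0.049 in edgeR), with 174 ± 103 CPM in the CB-100 libraries against 28.9 ± 16.6 CPM. Its call was lost without each single library other than sham replicate 2 (edgeR adjusted p of up to 0.17), in females alone (0.19) and without the filter on low counts (0.15), and an antisense gene model overlaps it. Genes named after their values were seen show the range. Elovl3, a cold-induced elongase, was at 36.1, 2.10, 1.44 and 94.3 CPM in CB-100 replicates 1 to 4 and at 7.86, 9.96 and 0.329 CPM in sham replicates 1 to 3. High Elovl3 was thus found in the 2 CB-100 libraries with the highest Ucp1. Nr4a1, an immediate target of adrenergic signalling, was highest in CB-100 replicate 2 (336 CPM), the CB-100 library with the lowest Ucp1. For Nr4a1 the log2 change was 0.89 (SE 0.67, adjusted p = 0.45 in edgeR). Pdk4, a kinase that blocks pyruvate oxidation, averaged 954 ± 319 CPM with CB-100 against 2154 ± 552 CPM with sham. Its log2 change was -1.18 (SE 0.33, adjusted p = 0.078 in edgeR). Pdk4 passed as lower in 4 of 18 alternatives (adjusted p of 0.0046 to 0.30 over all 18, by edgeR, DESeq2 or limma voom).

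**Figure D4:**
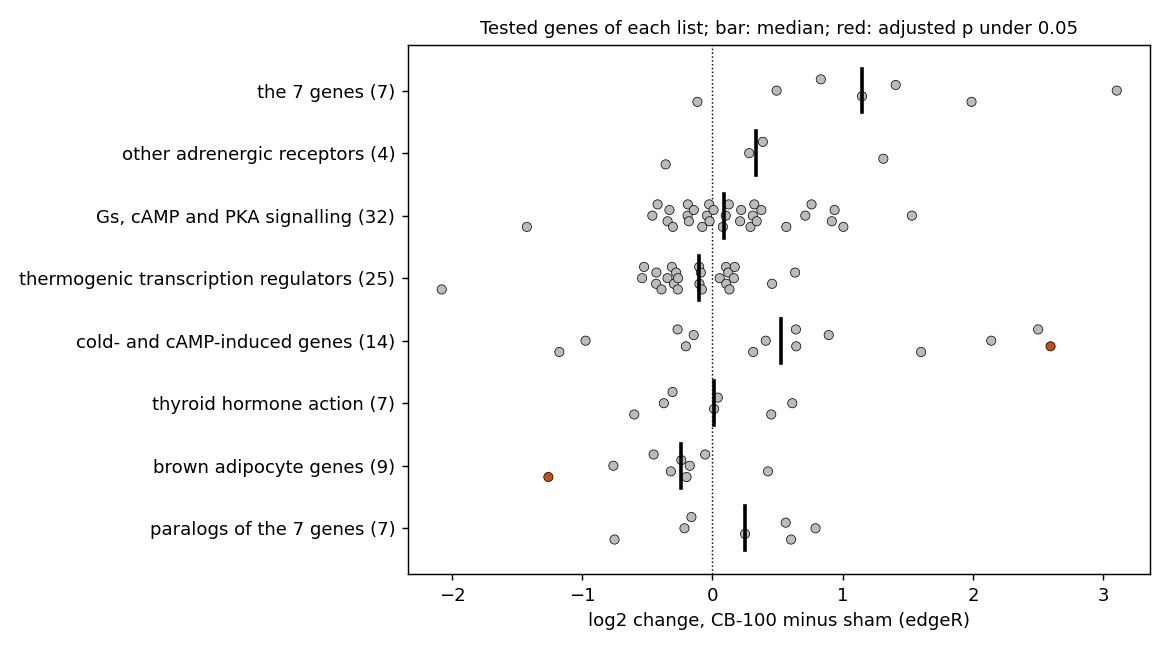
Log2 change of CB-100 minus sham for the tested genes of the 7 genes and 7 surrounding lists (number tested in brackets), with a bar at each median and red for an adjusted p under 0.05. The median of the 7 genes is 1.15 with no red point, and the red points elsewhere are Gk and Slc27a2.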

How the data were processed

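Brown adipose tissue RNA of 7 mice was sequenced, 1 library each. The values deposited by the authors are expected counts, unnormalized, in 1 table with up to 2 decimals. Per the labels' protocols, alignment was by STAR 2.7.9a against the primary assembly of Ensembl release 101. Also named, without a role, are featureCounts 2.0.3, Salmon 1.5.2, edgeR and limma, per the submitters' processing notes. For strandedness and the counting options the sources used here say nothing, so reads of a gene and its antisense partner cannot be told apart. Groups came from the treatment label, and replicate numbers follow accession order. Only the animal codes in the titles mark replicates as separate mice, so p-values reflect the spread among these libraries, which may be technical.

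Of 55774 lines, 287 repeated an identifier with identical values and were dropped. Counts were rounded, filtered by filterByExpr, scaled by TMM (factors 0.755 to 1.25) and tested with edgeR 4.0.16 (robust quasi-likelihood) in R 4.3.3, with Benjamini-Hochberg adjustment over 16823 genes and a threshold of 0.05. The SE is the log2 change over the square root of F. The fit was also run on simulated counts drawn with dispersions estimated from these data. That simulation held no difference between the groups in sex or library composition, so it does not cover such differences. CPM use TMM-scaled totals, and log2 CPM a prior count of 2. Exon lengths and overlaps came from GENCODE M21 (GRCm38). Alternatives were other scalings and filters, DESeq2 1.42.0, limma 3.58.1 voom, gene subsets, sex, and each library left out. The limma voom fit used quality weights for the libraries. With 3 or 4 mice per group their number limits precision.

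The members and lists were chosen with earlier results of these data known. Named genes are the members, tested receptors and paralogs, up to 4 called genes per other list (with none called, the 2 of smallest p), and the 5 genes closest to Ucp1. Cidea, Ppargc1b, Elovl3, Nr4a1, Pdk4 and Irf4 were chosen after their values were seen. Some items are not reported here.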

Additional observations from a re-analysis of the deposited data

Results flagged for a closer look

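In the CB-100 group 2 of the genes named had 1 library far from the other 3, by the gap to its neighbour relative to the range of the 4 values. Kcnk5 stood at 2.42 CPM in the highest library and Kcnk6 at 4.36 CPM in the lowest. About 1 in 20 groups is marked this way by chance, and sham groups of 3 were not examined. Dio2 and Ppargc1a, highest in CB-100 replicate 4, came close without passing, with gaps of 0.811 and 0.826 of the range.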

How the results depend on the processing

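The log2 changes of the 7 genes kept their direction in all 18 alternatives, and 6 of the 7 stayed short of the threshold in each. Adrb1 passed, making the count of called members 1, with upper quartile scaling (log2 change 1.45), total counts without scaling factors (1.22), at least 1 CPM in 3 libraries (1.41), DESeq2 (1.40), limma voom (1.41), protein-coding genes only (1.41) and without sham replicate 2. Leaving out single libraries gave Adrb1 values of 1.07 to 1.74 and counts of 0 to 1 called members. Scaling by total counts moved the median of all genes to -0.21, so that the changes of the 7 genes lie against that value there. The number of all genes called was 622, against 1968 with DESeq2, 1213 with limma voom, 238 with sex as covariate and 0 in females only (2578 at an unadjusted p under 0.05 in edgeR), and 8 to 610 without single libraries, the lowest without sham replicate 3. The log2 difference in the ratio of Ucp1 to adipocyte genes was 2.07 to 4.26 without single libraries. With a library left out, or in females only, the splits are too few for an exact permutation p under 0.05. Those alternatives therefore could not pass. On all 7 libraries the ratio reached the threshold with Adipoq alone (3.62), a gene itself lower in every CB-100 library than in every sham library. Estimates near 0 changed sign for Kcnk2 without CB-100 replicate 3 or sham replicate 1 (-0.66 to 0.49 over the single libraries left out), Kcnk5 with total counts (-0.031), Ppargc1b with total counts (-0.15), in females only (-0.071) and without sham replicate 3 (-0.059 to 0.24), as did Irf4, far from 0, without sham replicate 1 (-2.76 to 0.28), the library that held 467 CPM of it. Adcy7, Rgs2 and Ncoa1 passed with DESeq2 (adjusted p = 0.026, 0.016 and 0.028). The causes were not tested. No paired analysis was possible because the labels give no numbers shared between the groups.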
